A study of Mus musculus with 12 samples.

Results

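The cytosolic ribosomal protein genes code for the protein component of the ribosome that translates nuclear-encoded messenger RNA. They were taken from the gene count table by symbol, as every Rpl or Rps gene with its number and any variant letter, together with Rplp0, Rplp1, Rplp2 and Rpsa, and without the Rps6k kinases and the pseudogenes marked -ps. The rule gave 84 of 24033 genes, 51 of the large and 33 of the small subunit, and 8 of them are paralogs or variants by their symbol. Fau, Gnb2l1 (also called Rack1) and Rpl36al are ribosomal too but fall outside the symbol rule, and are given beside the members.

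All mice were Adv-Cre//Ribotag. The Advillin-driven Cre acts in sensory neurons and there switches Rpl22 to a hemagglutinin (HA)-tagged form, so that an HA immunoprecipitation (IP) collects ribosomes of those neurons with the RNA bound to them. One sciatic nerve was crushed and dissociated L4-L6 dorsal root ganglia (DRG) were collected 3 days later. The groups were IP of injured ganglia, IP of naive ganglia, input RNA of injured ganglia and input RNA of naive ganglia, with 3 libraries each, where input is the RNA of the dissociated ganglia before the IP and holds all their cell types. Naive ganglia came from the same animals as the injured ones and carry the same alleles, so the naive side of a crushed mouse is the control. The design text counts 4 mice while the labels number 3 replicates, and no label ties a number to an animal. A p-value here sets a difference against the variation among libraries, which may be technical as well as biological.

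The large subunit joins amino acids at the peptidyl transferase centre, and the small subunit reads the messenger RNA. Each ribosome needs 1 copy of nearly every ribosomal protein, and vertebrate cells keep their messenger RNAs in step partly through a shared start: many begin with a C followed by a run of pyrimidines, the 5′ terminal oligopyrimidine (TOP) tract, which lets the mTOR pathway and the RNA-binding protein Larp1 set how strongly they are translated. Injured sensory neurons grow axons again, a state in which demand for protein synthesis is known to be high.

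The tract was sought as a C followed by at least 4 letters that are each C or T, on the gene's own strand, beginning between 5 bases before and 5 bases after the annotated start. RefSeq promoter sequence on GRCm38.p6 was found for 63 members. Of these, 29 (46%) held the run in that window, against 5718 of 27025 genes (21.2%), and 13 (20.6%) held it exactly at the start, against 813 genes (3.01%). The 30 bases printed here run from 15 before the annotated start to 15 from it, with the printed part of the run in capitals. They show the tract in the member with the largest injury change (Rpl35, chr2:39005117-39005146, minus strand), in 4 members with a clear run (Rpl27a, chr7:109519180-109519209, plus strand, Rpl13a, chr7:45128731-45128760, minus strand, Rpl38, chr11:114668565-114668594, plus strand, and Rps15a, chr7:118116133-118116162, minus strand), and in the paralog Rpl22l1 (chr3:28805493-28805522, plus strand). They are set beside the tagged gene Rpl22 (chr4:152324421-152324450, plus strand) and the member lowest in IP against input, Rps12 (chr10:23787195-23787224, minus strand), in which no run began between those limits. The Rps12 window does end in a C followed by pyrimidines, further from the annotated start than the limit, which is left in lower case. Capitals begin no earlier than the limit, so the pyrimidines just before it in Rpl35 are in lower case too. The runs of Rpl27a and Rpl13a, of 20 and 14 bases, go on past the printed bases.
Rpl35: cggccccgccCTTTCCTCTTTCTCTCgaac
Rpl27a: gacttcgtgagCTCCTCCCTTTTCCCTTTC
Rpl13a: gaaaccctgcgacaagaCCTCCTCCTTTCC
Rpl38: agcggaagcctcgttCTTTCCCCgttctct
Rps15a: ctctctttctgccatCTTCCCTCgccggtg
Rpl22l1: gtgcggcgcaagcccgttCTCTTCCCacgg
Rpl22: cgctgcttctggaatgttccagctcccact
Rps12: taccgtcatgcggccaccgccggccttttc
A sequence without capitals says only that no such run began within those limits, and annotated starts can lie some bases from the start used in the ganglion.

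Total gene counts ran between 41076255 and 41990355 per library in injured IP, 33508842 and 36338423 in naive IP, 29477848 and 31417170 in injured input and 29436945 and 33015740 in naive input. Levels are CPM, that is, counts scaled to library size and composition. Members took 0.9049% to 0.9998% of the counts in injured IP, 0.7334% to 0.855% in naive IP, 1.393% to 1.65% in injured input and 1.225% to 1.411% in naive input. The labels were checked on 8 genes known to rise after axotomy. All 8 were higher in injured than in naive ganglia in IP (11.5% of all genes) and in input (7.79%). The neuronal label was checked on 25 pan-neuronal markers, of which 20 in injured and 16 in naive ganglia were higher in IP than in input and 0 were lower. Over all genes 21.4% and 15.1% were higher, and 24.6% and 26% lower.

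Per length, the members lay far apart. Over the 83 members with a transcript length the level had a median of 151 CPM per kb, with quartiles of 91.8 and 229. The length is that of the longest annotated transcript, so the level is understated where a shorter form prevails. Rplp1, an acidic protein of the stalk that recruits elongation factors, was highest at 567 CPM per kb, followed by Rpl41, a very small basic protein, at 460, Rpl19 at 344 and Rps9 at 333. The lowest were the 3 paralogs that failed the low-count filter, with Rpl26 next at 2.64 CPM per kb. The Rpl26 value rests on a gene count that falls short. A single interval in its 3′ untranslated region held 19.4 CPM on average, against 1.39 CPM for the whole gene. Rpl34 and Rps27 were also counted lower by gene than in such an interval. Rpl10l, a testis paralog of Rpl10, had a count of 0 in each of the 12 libraries, which allows up to 3 counts per library, or 0.0751 to 0.0991 CPM. Rpl39l, also known from testis, averaged 0.0336, 0.0289, 0.011 and 0.0797 CPM, and Rpl3l, a heart and skeletal muscle paralog, 0.0594, 0.088, 0.163 and 0.166 CPM, in injured IP, naive IP, injured input and naive input. The other 81 members were tested.

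Ribosomal protein messenger RNA made up a smaller part of the RNA on tagged ribosomes than of the whole ganglion, and a larger part after crush in both. The summed level of the 84 genes was 9604, 10449 and 9517 CPM in injured IP and 7653, 8749 and 7754 CPM in naive IP. It was 13762, 13085 and 15985 CPM in injured input and 12188, 11984 and 13469 CPM in naive input. The 6 IP libraries therefore all lay below the 6 input libraries. The 3 injured IP libraries lay above the 3 naive ones, while in input the lowest injured library lay below the highest naive one. Libraries of the same number were taken as pairs within a fraction. The sum was higher in the injured one in 3 of 3 pairs in IP and in 3 of 3 in input. On the log2 scale the sum differed by -0.53 in injured and -0.64 in naive ganglia between IP and input, and by 0.29 in IP and 0.18 in input between injured and naive.

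**Figure D1:**
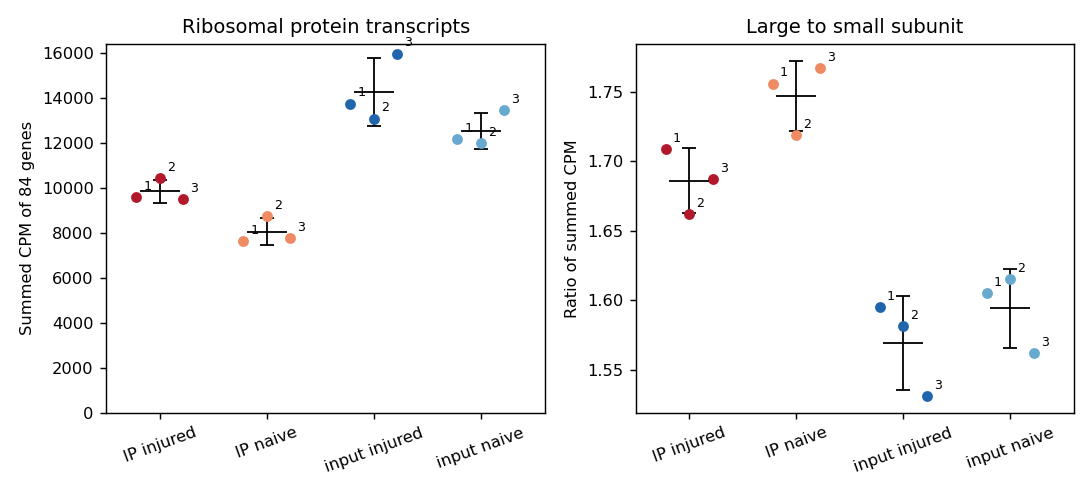
Left, summed CPM of the 84 ribosomal protein genes, and right, the ratio of summed large to summed small subunit CPM, in each library (points, with the replicate number) with the group mean and SD (bars, n = 3). The sum averages 9857 CPM in injured and 8052 CPM in naive IP, and 14277 CPM in injured and 12547 CPM in naive input, and the ratio is higher in IP than in input; the right axis does not start at 0.

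In injured ganglia, 71 of the 81 tested members were lower in IP than in input and 1, Rps4l, was higher, at an adjusted p under 0.05 in edgeR's quasi-likelihood test. Of all genes tested, 24.6% were lower and 21.4% higher. The members' median log2 change was -0.498, or 1.41-fold lower, against 0.0427 over all genes. The large subunit had 40 of 48 tested members lower with a median of -0.478, and the small subunit 31 of 33 with a median of -0.625. In 72 members every IP library lay below every input library, as in 27.4% of all genes, and in 2 above, as in 28.7%. In naive ganglia 73 members were lower (26% of all genes) and again Rps4l was higher (15.1% of all genes). The median there was -0.629, or 1.55-fold lower, against -0.0137 over all genes, with -0.597 in the large and -0.807 in the small subunit. In 75 members every naive IP library lay below every naive input library, as in 30.8% of all genes, and in 1 above, as in 24.3%. The 71 lower in injured ganglia were 71 of the 73 lower in naive ganglia, and the remaining pair was Rpl19 and Rpl27.

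The member with the lowest value was Rps12, a small subunit protein near the beak of the subunit. It had 82.7, 103 and 87.9 CPM in injured IP, against 213, 210 and 261 CPM in injured input. In naive ganglia it had 66.0, 81.7 and 61.8 CPM in IP, against 180, 183 and 209 CPM in input. No IP library came near an input library. Its log2 change was -1.32 (SE 0.125, adjusted p = 5.18e-06, edgeR) in injured and -1.45 (SE 0.126, adjusted p = 2.65e-06, edgeR) in naive ganglia. Rpl39, a small protein lining the exit tunnel, changed by -0.99 in injured and -1.14 in naive ganglia, and Rpl32 by -0.99 and -1.16. Rps19, the small subunit protein most often mutated in human Diamond-Blackfan anaemia, was at -1.12 in naive ganglia.

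The tagged protein's own gene, Rpl22, had a smaller fitted change in the gene count. Counts within its 3′ untranslated region, described further on, gave a larger difference. It had 80.5, 82.1 and 83.8 CPM in injured IP, against 94.9, 97.3 and 97.4 CPM in injured input, and 76.3, 77.8 and 78.5 CPM in naive IP, against 95.7, 88.1 and 93.3 CPM in naive input. The fractions did not overlap in either state. The log2 change was -0.23 (SE 0.0598, adjusted p = 0.00634, edgeR) in injured ganglia, where it was no longer called without both IP libraries numbered 1 (-0.22), and -0.25 (SE 0.0599, adjusted p = 0.00448, edgeR) in naive ganglia, where it was no longer called without the third naive input library (-0.17). The count table does not separate tagged from untagged Rpl22. Rpl22l1, the paralog that can take the place of Rpl22 in the ribosome, had 32.3, 36.1 and 32.5 CPM in injured IP, against 45, 41.8 and 54.9 CPM in injured input. It was lower in IP in both states, with a log2 change of -0.49 in injured and -0.62 in naive ganglia.

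The stalk genes were lower in IP in both states. Rplp0, which anchors the stalk, changed by -0.85 in injured and -0.93 in naive ganglia, Rplp1 by -1.05 and -1.02, and Rplp2 by -0.57 and -0.62. Rplp1 had 177, 218 and 190 CPM in injured IP, against 370, 359 and 487 CPM in injured input. Rpsa, a small subunit protein also known as the laminin receptor, changed by -0.73 in injured and -0.75 in naive ganglia.

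A few members were not called. Rpl4, a core protein of the exit tunnel, had 303, 303 and 284 CPM in naive IP and 339, 356 and 287 CPM in naive input, where the groups overlapped (-0.14, adjusted p = 0.195, edgeR). Rpl15 (-0.13), Rpl7l1 (-0.07), Rpl26 (-0.02), Rpl30 (-0.28), Rpl34 (-0.23) and Rps27 (-0.46) were not called in naive ganglia either. The same 7 were not called in injured ganglia, where Rpl30 had a value of 0.30 (adjusted p = 0.108, edgeR), with every IP library above every input library. These are gene counts, and some fall short. Counts within the 3′ untranslated region, described further on, gave -0.79 for Rpl26, -0.80 for Rpl34, -1.36 for Rps27 and -0.66 for Rpl15 in naive ganglia. There every IP library lay below every input library. For Rpl4 and Rpl7l1 they gave -0.01 and -0.03, with overlapping groups. Rpl30, counted at 3.09 CPM on average, could not be checked in this way. Rpl7l1, a paralog of Rpl7 that takes part in assembly of the large subunit, had 52.9, 53.0 and 53.5 CPM in injured IP and 48.7, 45.9 and 55.3 CPM in injured input.

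Rps4l was the member called the other way. It had 44.6, 47.0 and 43.5 CPM in injured IP, against 34.0, 33.1 and 40.2 CPM in injured input, and 31.1, 31.1 and 30.6 CPM in naive IP, against 25.6, 25 and 26.6 CPM in naive input. IP lay above input in every library of both states. The log2 change was 0.33 (SE 0.0818, adjusted p = 0.00501, edgeR) in injured and 0.27 (SE 0.0829, adjusted p = 0.0211, edgeR) in naive ganglia, and neither was called when only library size was scaled (0.19 and 0.17). The naive call was also lost without naive IP library 1 (0.26) or 3 (0.27) and without naive input library 1 (0.26) or 2 (0.25). RefSeq annotates Rps4l as a transcribed pseudogene at chr6:148354656-148355596 (GRCm38.p6), within the span of Tmtc1 (chr6:148232430-148444770), which lies on the opposite strand in GENCODE. The sources used here do not say how reads of overlapping genes, or of near-identical copies such as Rps4x, were assigned. Tmtc1 was higher in IP too, with 0.44 in injured and 0.37 in naive ganglia, but lower after crush (-0.34 in IP and -0.42 in input), where Rps4l was higher. Rps4x, the main form of the protein, was lower in IP (-0.66 in injured and -0.81 in naive ganglia).

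**Figure D2:**
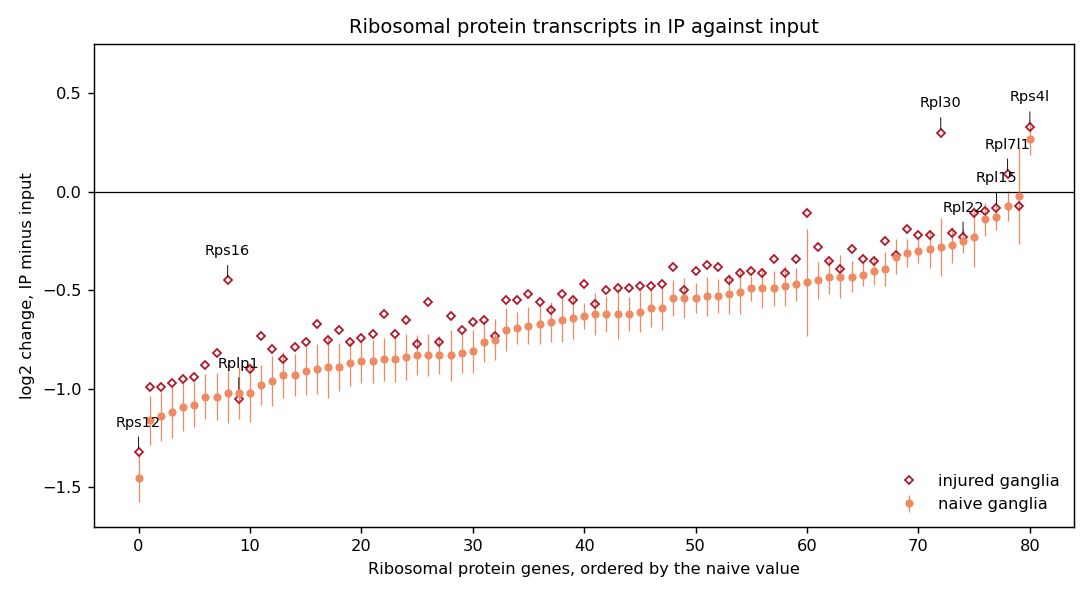
Log2 change of IP minus input (y axis) for the 81 tested ribosomal protein genes, ordered by their value in naive ganglia (x axis, rank); open diamonds are injured ganglia and circles with SE naive ganglia. Of the 81 values, 78 in injured and 80 in naive ganglia lie below 0, with Rps12 lowest and Rps4l highest in both.

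The input holds glia and other cells that the IP depletes, and in bulk RNA fewer cells of a type and less RNA per cell cannot be told apart. Of 14 Schwann cell and myelin markers 13 were lower in IP in each state, as were all 10 satellite glia, 14 macrophage and 11 fibroblast and perineurium markers, and of 13 endothelial and pericyte markers 12 in injured and 11 in naive ganglia. Over all genes 24.6% in injured and 26% in naive ganglia were lower. The list medians in naive ganglia were -3.04 for Schwann cells, -2.63 for satellite glia, -2.71 for macrophages, -3.05 for fibroblasts and -2.09 for endothelium on the log2 scale, all further from 0 than the -1.45 of Rps12. Summed satellite glia markers reached 838.4 to 1282 CPM in injured IP and 509.2 to 937 CPM in naive IP, against 4324 to 5113 CPM in injured input and 4121 to 4613 CPM in naive input. None of the markers in these lists was at 0 in every library. The part of these cells in the ribosomal protein result was not tested.

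Both subunits were lower in IP, but their ratio also differed. The ratio of summed large to summed small subunit CPM was 1.709, 1.662 and 1.687 in injured IP, against 1.595, 1.581 and 1.531 in injured input. It was 1.756, 1.719 and 1.767 in naive IP, against 1.605, 1.615 and 1.562 in naive input. All IP libraries lay above all input libraries, by 0.10 on the log2 scale in injured and 0.13 in naive ganglia. Between injured and naive the ratio differed by -0.05 in IP and -0.02 in input, and the groups overlapped in input, while in IP the highest injured library (1.709) lay just below the lowest naive one (1.719). Between libraries of the same number the ratio was higher in the injured one in 0 of 3 pairs in either fraction.

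After crush, the ribosomal protein transcripts that changed on neuronal ribosomes were all higher. Of the 81 members 32 were higher in injured than in naive IP and 0 were lower (edgeR), against 11.5% and 7.12% of all genes, and 49 were not called. At an unadjusted p under 0.05 the counts were 67 and 0, against 18.1% and 12.9% of all genes. DESeq2 called 33 and 0, against 11.9% and 9.49%. The median log2 change was 0.299, a 1.23-fold increase, against 0.021 over all genes, and single members ranged between -0.01 and 0.77. In 68 members all injured IP libraries lay above all naive ones and in 0 below, against 24.1% and 20.5% of all genes. With the replicate number as a block within each fraction 76 members were called higher and 0 lower, against 23.8% and 18% of all genes. The large subunit had 16 of 48 called and the small subunit 16 of 33. The count depended on single libraries: it was 12 without injured IP library 2, naive IP library 1 or naive IP library 3, 60 without injured input library 3, 6 without both IP libraries numbered 1, and 65 without both input libraries numbered 3.

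Rpl35, a large subunit protein at the mouth of the exit tunnel, changed most. It had 57.5, 64.3 and 62.4 CPM in injured IP, against 33.1, 39.4 and 35.4 CPM in naive IP, and 86.8, 81.1 and 104 CPM in injured input, against 57.3, 66.7 and 68.0 CPM in naive input. Injured lay above naive in every library of both fractions. The log2 change was 0.77 (SE 0.107, adjusted p = 0.000238, edgeR) in IP and 0.50 (SE 0.106, adjusted p = 0.00582, edgeR) in input. A repeat-free interval in its 3′ untranslated region (3′ UTR), counted in a second table, gave 34.0, 38.1 and 34.4 CPM in injured IP, against 18.2, 24.3 and 18.5 CPM in naive IP.

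The next in IP were Rps16, a small subunit protein, at 0.55 (adjusted p = 0.0241), Rps4l at 0.54 (adjusted p = 0.000451) and Rpl12, a protein at the base of the stalk, at 0.51 (adjusted p = 0.00488), all by edgeR. Rps16 was no longer called without injured IP library 2 (0.51) or 3 (0.54) or naive IP library 1 (0.47) or 3 (0.56). Among the stalk genes Rplp0 was higher in IP, with 282, 316 and 269 CPM in injured IP, against 205, 247 and 210 CPM in naive IP (0.39, SE 0.115, adjusted p = 0.0313, edgeR). That call was lost without injured IP library 1 (0.41) or 2 (0.32) or naive IP library 1 (0.34) or 3 (0.35). Rplp2 (0.31), Rplp1 (0.15) and Rpsa (0.24) were not called, but each was called with the replicate block (edgeR adjusted p = 1.55e-06, 0.00723 and 3.04e-05).

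Rpl22 differed little between the states, with an injury value of 0.08 in IP (adjusted p = 0.388, edgeR, and 0.16 with the replicate block). The other low values were those of Rpl3, which lines the peptidyl transferase centre, at -0.01, of Rpl34 at 0.02 and of Rpl4 at 0.13, of which Rpl4 was called higher with the replicate block (adjusted p = 0.0153, edgeR). Rpl3 had 280, 282 and 266 CPM in injured IP and 283, 282 and 270 CPM in naive IP, so the groups overlapped almost completely. Of the 5 tested paralogs and variants, Rps27l, a p53-inducible paralog of Rps27, was higher at 0.46 (adjusted p = 0.00663, edgeR) along with Rps4l. Rps27l had 16.2, 17.6 and 16.2 CPM in injured IP, against 11, 13.6 and 11.8 CPM in naive IP. Rps4x (0.32), Rpl22l1 (0.25) and Rpl7l1 (0.17) were not called, and with the replicate block their adjusted p was 2.67e-07, 0.00101 and 0.0105 in edgeR.

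In whole ganglia 9 members were higher after crush and 0 lower (edgeR), against 7.79% and 8.26% of all genes. In this fit, which leaves out the replicate numbers, the share called was close to the background. The median log2 change was 0.175, a 1.13-fold increase, against -0.0221 over all genes, and 76 of 81 values were above 0. DESeq2 called 15 and 0, against 9.67% and 7.85% of all genes, and at an unadjusted p under 0.05 the counts were 23 and 0, against 12.9% and 15.2%. In 19 members all injured libraries lay above all naive ones and in 0 below, against 14% and 14.7% of all genes. With the replicate block 61 were called higher and 0 lower, against 17.5% and 22.1% of all genes. The 9 were Rpl12, Rpl18, Rpl24, Rpl35, Rpl41, Rps2, Rps27l, Rps3 and Rps4l. All 9 were among the 32 called in IP, which is 9 of 9 and 9 of 32. The input count was 2 without naive input library 1, 4 without naive input library 2 or injured input library 3, 5 without injured input library 1, 40 without naive input library 3, and 34 without both input libraries numbered 3. The median was 0.0794 without injured input library 3 and 0.324 without naive input library 3.

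Behind Rpl35 stood Rps4l at 0.47 and Rps27l at 0.41 (adjusted p = 0.00173 and 0.0135, edgeR), while Rpl26 at 0.46 was not called (adjusted p = 0.239, edgeR). Rps27l had 22.5, 22.3 and 25.8 CPM in injured input, against 16.3, 18.1 and 18.5 CPM in naive input, with no overlap, and was no longer called without naive input library 1 (0.36). At the other end stood Rpl34 (-0.10), Rpl30 (-0.09), Rpl3 (-0.09) and Rps27 (-0.03), of which none was called. In the 3′ UTR intervals described further on, Rpl26 was at 0.13 and Rpl34 at 0.15 in input, with overlapping groups.

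**Figure D3:**
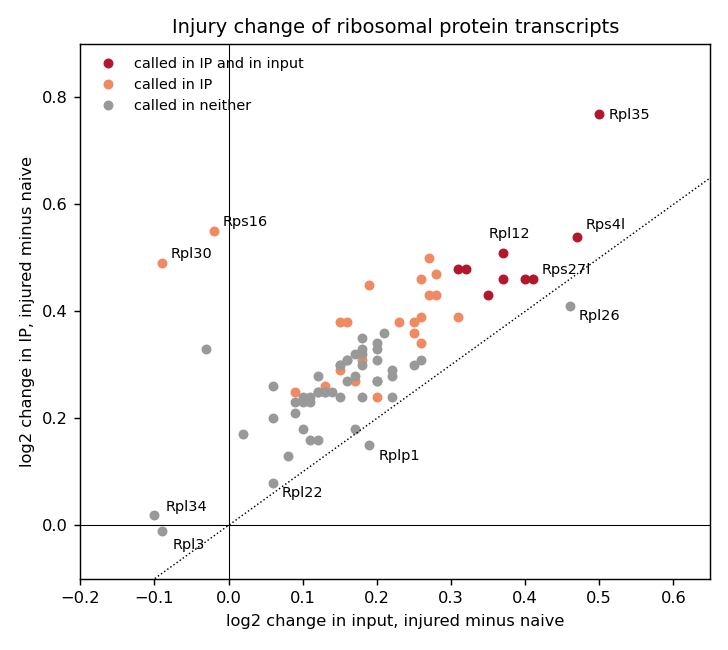
Log2 change of injured minus naive in IP (y axis) against that in input (x axis) for the 81 tested ribosomal protein genes, coloured by the edgeR call; the dotted line marks equal values. Rpl35 is highest on both axes at 0.77 and 0.50, and Rps16 and Rpl30 lie near 0 in input while they are called in IP. Rpl30 is counted at 3.09 CPM on average, so its position is uncertain.

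The difference between the injury changes was tested directly, as the change in IP minus that in input. No member was called by edgeR or DESeq2, where 0.0635% and 0.26% of all genes were called higher and 0% and 0.0191% lower. At an unadjusted p under 0.05 there were 2 members higher and 0 lower, against 2.43% and 0.673% of all genes, so the share was near the background. The median was 0.128 against 0.0648 over all genes, and 79 of 81 values were above 0, as were 10912 of the 15748 over all genes. The members' median was -0.0515 without naive input library 3. The highest values were those of Rpl30, a large subunit protein, at 0.58 and Rps16 at 0.57, each with an adjusted p of 1 in edgeR. Rpl30 averaged only 3.65 CPM in injured IP, 2.59 in naive IP, 2.96 in injured input and 3.14 in naive input, so its value is uncertain. Rps16 had 41.9, 46.3 and 45.0 CPM in injured IP, against 27.0, 33.3 and 30.8 CPM in naive IP, and 51.1, 56.1 and 74.9 CPM in injured input, against 50, 62.8 and 71.7 CPM in naive input. It was thus higher in each injured IP library while the input groups overlapped. With the replicate block 2 members were called, Rps16 (0.57, adjusted p = 3.69e-05, edgeR) and the small subunit gene Rps24 (0.26, adjusted p = 0.0207, edgeR), where 1.66% of all genes were called higher and 0.127% lower.

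Markers of other cells moved with injury as well. Summed macrophage markers reached 40.24 to 125.5 CPM in injured IP and 24.6 to 52.87 CPM in naive IP, and 474.3 to 617 CPM in injured input and 249.9 to 314.4 CPM in naive input. Of the 14, 4 were higher in IP (11.5% of all genes) and 7 in input (7.79%), and all 14 in each with the replicate block (23.8% and 17.5%). The list's median log2 change was 1.18 in IP and 1.19 in input. Satellite glia markers summed to 838.4, 1282 and 1160 CPM in injured IP and 509.2, 937 and 779.9 CPM in naive IP, and to 4324 to 5113 CPM in injured input and 4121 to 4613 CPM in naive input. Of these 10, 2 were higher in IP (11.5% of all genes), Glul (0.92) and Entpd2 (0.67), and 1 in input (7.79%). With the block 7 and 3 were higher (23.8% and 17.5%). Schwann cell markers summed to 1445 to 1886 CPM in injured IP and 1410 to 1838 CPM in naive IP. In IP 0 of 14 were called, where 11.5% of all genes were higher and 7.12% lower. With the block 5 were higher and 1 lower in IP (23.8% and 18% of all genes). Fibroblast and perineurium markers summed to 289.8 to 634.3 CPM in injured IP and 187.5 to 427.6 CPM in naive IP, and to 3117 to 3585 CPM in injured input and 2324 to 2789 CPM in naive input. Library 2 had the highest ribosomal protein sum of its group in both IP groups. It also had the highest satellite glia (1282 CPM in injured and 937 CPM in naive IP), Schwann cell (1886 and 1838 CPM) and fibroblast sums (634.3 and 427.6 CPM). Pan-neuronal sums were highest in library 1 of both IP groups, and endothelial and pericyte sums in library 3 of both. Macrophage sums were highest in library 3 of injured and library 2 of naive IP. Library 3 had the highest ribosomal protein and macrophage sums in both input groups, with macrophage sums of 617 CPM in injured and 314.4 CPM in naive input. The pan-neuronal (25024 and 24698 CPM), satellite glia (5113 and 4613 CPM) and fibroblast sums (3585 and 2789 CPM) were highest there too. Schwann cell sums were highest in library 1 of both input groups. Endothelial and pericyte sums were highest in library 3 of injured and library 2 of naive input. The part of these cells in the injury result was not tested.

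Ribosomal protein messengers are short. Their longest annotated transcripts spanned 345 to 5179 nt with a median of 833 nt, against 3079 nt over the 14382 tested genes with a length. Which transcript form the ganglion uses was not tested, so a gene with a long annotated form may be placed too high in length. Members with shorter transcripts tended to be lower in IP: the Spearman rho of the IP-input change with length was 0.305 in injured and 0.279 in naive ganglia over 80 members, and 0.15 and 0.125 over all other genes. These are correlations across genes of the same libraries, and genes are not independent replicates. The 26 shortest members (345 to 633 nt) had a median of -0.734 in injured and -0.839 in naive ganglia, and the 27 longest (977 to 5179 nt) had -0.47 and -0.629. The values of the longest still lay below the medians of all genes, 0.0427 and -0.0137. For the injury changes the members' rho was -0.15 in IP and -0.154 in input.

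**Figure D4:**
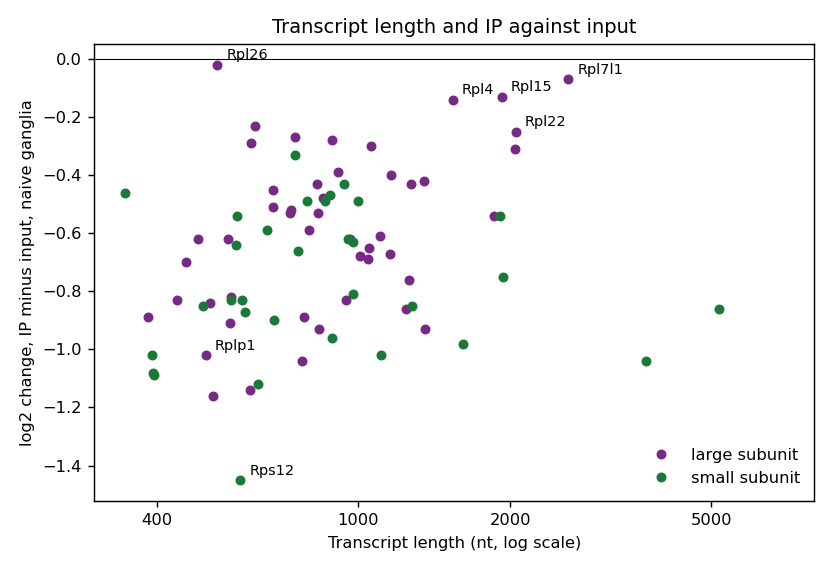
Log2 change of IP minus input in naive ganglia (y axis) against transcript length in nt (x axis, log scale) for 80 ribosomal protein genes, coloured by subunit. By gene count, Rpl7l1, Rpl15 and Rpl4 have long transcripts and values of -0.07, -0.13 and -0.14, and Rpl26 has a short one and -0.02. The 3′ UTR intervals give -0.79 for Rpl26 and -0.66 for Rpl15, so their gene-count values are doubtful, and -0.03 for Rpl7l1 and -0.01 for Rpl4. Rps12, at -1.45, is lowest, and Rps15a and Rps20, the small subunit genes with the longest annotated transcripts, also lie well below 0.

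A second look at the same libraries came from repeat-free 3′ UTR intervals. There were 105 such intervals in 80 members, of which 65 members reached at least 1 CPM. In these the median log2 ratio of group means was -0.56 in injured and -0.63 in naive ganglia for IP against input, against 0.107 and -0.0341 over the 6133 genes with such intervals at that level. Every IP library lay below every input library in 56 and 59 members, as in 13% and 20.5% of those genes. For injury the members' median was 0.3 in IP, against -0.00144 over those genes, and 0.18 in input, against -0.121. Every injured library lay above every naive one in 38 members in IP and 12 in input, as in 16.7% and 6.88% of those genes. The intervals were counted in the same libraries, so they are no independent samples.

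The intervals also showed where the gene counts fall short. In Rpl26 a single interval held 19.4 CPM on average while the whole gene was counted at 1.39 CPM, in Rpl34 9 against 5.77 CPM, and in Rps27 2.4 against 1.12 CPM. Rpl26 had 12.4, 14.8 and 12.7 CPM in its interval in naive IP, against 22.8, 21.2 and 25.1 CPM in naive input, with no overlap. The interval ratios of IP to input in naive ganglia were -0.79 for Rpl26, -0.80 for Rpl34 and -1.36 for Rps27, where the gene counts gave the uncalled values of -0.02, -0.23 and -0.46. For Rpl15, also uncalled, the intervals gave -0.66 against -0.13 by gene, and for Rpl22 -0.47 against -0.25. In injured ganglia the Rpl22 intervals gave -0.58 against -0.23 by gene, and IP lay below input in every library of both states. The members' interval medians were -0.56 in injured and -0.63 in naive ganglia, so the size of the Rpl22 difference depends on the count used. For Rpl4 and Rpl7l1, uncalled as well, the intervals gave -0.01 and -0.03, with overlapping groups. The gene-level values of Rpl26, Rpl34 and Rps27, and of Rpl30, which was counted at about 3 CPM and has no interval, are therefore uncertain.

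**Figure D5:**
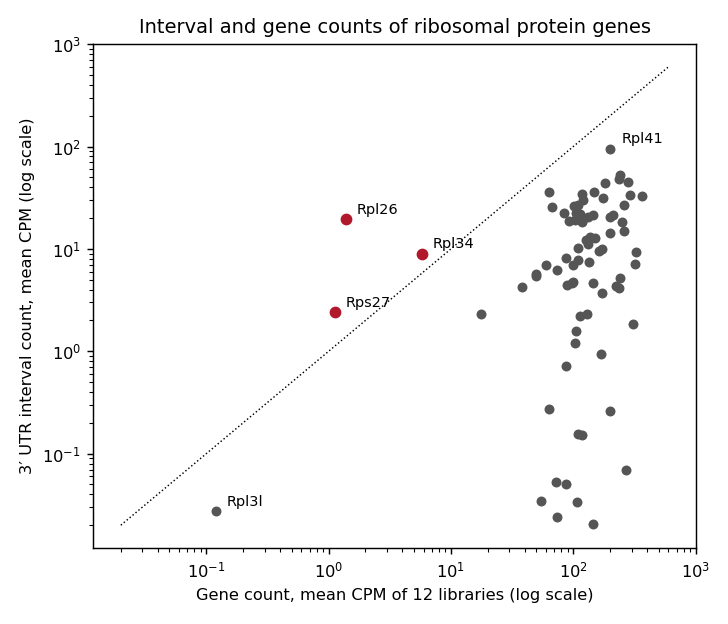
Mean CPM of the 3′ UTR intervals (y axis, log scale) against mean CPM of the gene count (x axis, log scale) over 12 libraries for ribosomal protein genes with counts in both; the dotted line marks equal values. Rpl26, Rpl34 and Rps27 (red) lie above the line, with 19.4, 9 and 2.4 CPM in the interval and 1.39, 5.77 and 1.12 CPM in the gene count.

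Some ribosomal proteins fall outside the symbol rule. Gnb2l1, the scaffold on the small subunit head, was lower in IP (-0.67 in injured and -0.71 in naive ganglia), as was Fau (-0.33 and -0.41), which codes for a small subunit protein fused to a ubiquitin-like part, while Rpl36al (-0.20 in both) was not called. After crush Gnb2l1 was higher in IP (0.34, adjusted p = 0.0489, edgeR). The 77 mitochondrial ribosomal protein genes serve the separate ribosome of the organelle. Of these, 10 were higher and 4 lower in IP than in input in injured ganglia (21.4% and 24.6% of all genes). In naive ganglia the counts were 5 and 4 (15.1% and 26% of all genes). After crush 1 was higher and 0 lower in IP (11.5% and 7.12% of all genes), and 0 and 1 in input (7.79% and 8.26%). With the replicate block the counts were 6 and 5 in IP (23.8% and 18% of all genes) and 4 and 14 in input (17.5% and 22.1%). Their median injury change was 0.0114 in IP and -0.0244 in input.

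Other messengers with a known TOP tract were given by a list of 19, which holds elongation factors, the poly(A)-binding protein gene Pabpc1 and noncoding host genes of small nucleolar RNAs. Of these, 9 were lower and 3 higher in IP than in input in injured ganglia (24.6% and 21.4% of all genes), and 11 and 1 in naive ganglia (26% and 15.1%). The strongest were the host genes Snhg1 (-0.97 in injured and -1.26 in naive ganglia) and Gas5 (-0.70 and -0.87), while Nap1l1, a histone chaperone gene, was higher (0.76 and 0.66). After crush 8 were higher in IP (11.5% of all genes) and 0 lower (7.12%), and 1 was higher in input (7.79%). With the replicate block 14 were higher and 1 lower in IP (23.8% and 18% of all genes) and 8 and 2 in input (17.5% and 22.1%). Eef1b2, an elongation factor 1 subunit, averaged 195 CPM in injured IP, against 108 CPM in naive IP (0.85, adjusted p = 4.15e-06, edgeR), and 226 CPM in injured input, against 145 CPM in naive input (0.65, adjusted p = 7.43e-05, edgeR).

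Of 34 initiation factor and related genes 12 were higher and 1 lower in IP in injured ganglia (21.4% and 24.6% of all genes). In naive ganglia the counts were 7 and 1 (15.1% and 26% of all genes). The scaffold gene Eif4g1 stood at 0.55 in injured and 0.49 in naive ganglia. Eif4ebp1, whose protein holds back the cap-binding factor when mTOR is inactive, was the one lower in naive IP (-0.83). After crush 7 were higher in IP (11.5% of all genes) and 5 in input (7.79%), and 0 lower in either (7.12% and 8.26%). With the replicate block 22 were higher and 2 lower in IP (23.8% and 18% of all genes) and 10 and 3 in input (17.5% and 22.1%). Eif4ebp1 averaged 11.7 CPM in injured IP, against 4.07 CPM in naive IP (1.52, adjusted p = 1.91e-06, edgeR). Eif3b, of the initiation factor that binds the small subunit, changed by 0.58 in IP and 0.43 in input.

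Among 64 ribosome assembly genes 23 were higher and 3 lower in IP in injured ganglia (21.4% and 24.6% of all genes) and 15 and 7 in naive ganglia (15.1% and 26%). After crush 7 were higher in IP and 6 in input, and 0 lower in either, shares near the 11.5% and 7.79% of all genes. With the replicate block 22 were higher and 2 lower in IP (23.8% and 18% of all genes) and 14 and 6 in input (17.5% and 22.1%). The called ones included Eif6, which keeps new large subunits from joining small ones (0.56 in IP and 0.54 in input), Rrp12, needed for export of both subunits (0.51 and 0.48), and Sbds, which helps to release Eif6 (0.48 in IP).

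Of 20 regulators of translation 9 were higher and 3 lower in IP in injured ganglia (21.4% and 24.6% of all genes), and 4 each way in naive ganglia (15.1% and 26%). Larp1 was higher in IP (0.72 in injured and 0.66 in naive ganglia), while Mtor was lower in naive ganglia (-0.46) and Ddit4, an inhibitor of mTOR signalling, was lower in both (-1.15 and -0.91). After crush 5 were higher in IP (11.5% of all genes) and 4 in input (7.79%), and 0 lower in either (7.12% and 8.26%). With the replicate block 7 were higher and 4 lower in IP (23.8% and 18% of all genes) and 7 and 6 in input (17.5% and 22.1%). Sesn2, a leucine sensor that restrains mTOR complex 1, was higher at 1.13 in IP and 0.80 in input, Rps6ka1, a kinase downstream of ERK, at 0.88 and 0.72, and Myc, which drives transcription of ribosomal protein genes, at 0.65 in IP.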

How the data were processed

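RNA was purified on RNeasy columns and made into stranded, ribosomal-RNA-depleted libraries, per the labels' protocols. Tools listed in the submitters' processing notes are STAR, HTSeq and bcl2fastq 2.17, and builds are mm10 and GRCm38, with no role for each. Raw counts were deposited for RefSeq genes and for short genomic intervals. The sources used here do not say how multiply mapped reads were treated, which matters for genes with many processed copies. Of 24060 gene entries 27 had been turned into dates (0.191% to 0.214% of all counts) and were not used. Columns that belong to no sample numbered 0.

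Counts of all 12 libraries were fitted with edgeR 4.0.16 in R 4.3.3 (robust quasi-likelihood, 4 group means, 8 residual degrees of freedom, TMM scaling), and filterByExpr left 15748 genes. P-values were adjusted by Benjamini-Hochberg over all of them at 0.05. The quasi-likelihood script was tested on simulated data. CPM use TMM-scaled library sizes. The length of a gene is that of its longest GENCODE transcript with a RefSeq match, which may not be the main form in the ganglion. DESeq2 1.42.0, other scalings, no filter, replicate blocks and left-out libraries were alternatives. Replicates of a group differed by more than sampling noise (chi-square per degree of freedom 4.75 to 54.9), so none were merged.

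The replicate numbers in the titles were checked for pairing. Deviations of same-numbered injured and naive libraries from their group means correlated at 0.447, 0.319 and 0.191 in IP and 0.273, 0.423 and 0.597 in input. Differently numbered ones lay between -0.369 and 0.0944 in IP and between -0.467 and 0.206 in input. Deviations within a group cancel out for each gene, so positive same-numbered values lower the differently numbered ones, and part of this contrast is built in. All same-numbered values were over 0.1, so the numbers were taken to pair the samples within a fraction. What the members of a pair share was not tested. Between fractions, same-numbered libraries reached as low as -0.0245.

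Members and gene lists were chosen with earlier results of these data known, and the mitochondrial ribosomal list was added later. Named genes were Rpl22, Rpl22l1, the stalk genes, Rpsa, paralogs, the 4 highest and 4 lowest members per comparison and by level, and up to 3 called genes of a list; the other genes named were chosen after their values were seen. Limits drawn from counts of 0 cover counting error only.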

Additional observations from a re-analysis of the deposited data

How the results depend on the processing

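The direction of every count and median given for the members held under each alternative run, except the median of the interaction, which was -0.0515 to 0.209 without single replicates and below 0 without naive input replicate 3. The counts moved. Members called higher after crush in IP numbered 76 with the replicate block within fraction, 67 with only the libraries compared, 65 without both input libraries numbered 3, 6 without both IP libraries numbered 1, and 12 to 60 without single replicates. In input they numbered 61 with that block, 5 with only the libraries compared, 15 by DESeq2, 34 without both input libraries numbered 3, and 2 to 40 without single replicates, with a median of 0.0794 to 0.324. The settings without 2 libraries were chosen after seeing the data. The interaction called 2 members with the block. Rps4l, the 1 member called higher in IP than in input, left 0 with library size alone in both states, and in naive ganglia 0 without both IP libraries numbered 1 and 0 to 1 without single replicates. Library size alone moved the median of all genes to -0.105 in injured and -0.106 in naive ganglia for IP against input, and the members' median to -0.644 and -0.723. Relative to all genes that is -0.538 and -0.616, against -0.54 and -0.616 with TMM. The injured minus naive log2 difference in the subunit ratio was -0.04 to -0.03 without single replicates. An additive replicate block across all groups gave 46 members in IP. The cause of these moves was not tested. Over 79 further results, 1536 of 1691 alternatives gave the same call or value, 43 gained a call, 21 lost it and 91 moved by more than the replicate spread. Low counts limit the members at a few CPM, though in Rpl26, Rpl34 and Rps27 an interval held more than the gene count.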
